A study of Mus musculus with 8 samples.

Results

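The sugar and monocarboxylate transporters are the genes of 3 carrier families, taken here as every row of the deposited table whose gene name begins with Slc2a, Slc5a or Slc16a followed by a number. This rule takes 36 of the 34745 genes listed, of which 12 are facilitative Slc2 carriers, 11 are sodium-coupled Slc5 carriers and 13 are monocarboxylate Slc16 carriers, and 1 further monocarboxylate carrier gene is not analysed here. Transcripts were measured by sequencing of messenger RNA from renal tissue of wild-type (WT) mice at day 14. There were 8 libraries in 3 groups: uIRI with MSC transplantation (uIRI+MSC, n = 3), uIRI alone (n = 3) and sham (n = 2). The abbreviation uIRI commonly means unilateral ischaemia-reperfusion injury and MSC mesenchymal stem cells, but the labels spell out neither. They do not state the strain, age or sex of the mice or the source and dose of the cells. They also do not state whether each library came from its own animal, so the p-values describe only how these libraries vary, which may be technical.

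Glucose that is filtered in the kidney is taken back by the proximal tubule in 2 steps. Sodium-coupled carriers of the Slc5 family lift it across the brush border against its gradient, SGLT2 (Slc5a2) in the early and SGLT1 (Slc5a1) in the late part of the tubule, and facilitative carriers of the Slc2 family, mainly GLUT2 (Slc2a2) and GLUT1 (Slc2a1), let it leave to the blood. Other members of the same families carry fructose, mannose, myo-inositol, urate, lactate or vitamins. The Slc16 family holds the proton-linked carriers of lactate, pyruvate and ketone bodies, together with carriers of aromatic amino acids and creatine that share their fold but not their substrates.

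Of the 36 members, 32 had enough counts to be tested, 11 of the Slc2, 9 of the Slc5 and 12 of the Slc16 family. The other 4 were close to absent. Slc2a7, an intestinal hexose carrier, had 1 count in all libraries together, in sham 1. Slc16a8, a lactate carrier of the retinal pigment epithelium, had 0 counts in uIRI+MSC, 1 in each uIRI library, and 0 and 5 in sham. Slc5a7, the choline carrier of cholinergic nerve endings, had 4 counts over uIRI+MSC, 11 over uIRI and 0 over sham. Slc5a5, the iodide carrier of the thyroid, had 9, 3 and 1 counts in uIRI+MSC, 12, 8 and 5 in uIRI, and 1 and 0 in sham.

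Upstream sequence is shown for the member with the lowest change between uIRI and sham, for the member with the highest change, and for Slc2a1, whose window holds a motif that was searched. Each line gives the 250 bases before a RefSeq transcript start on GRCm38.p6, from 5′ to 3′ on the strand of the gene, with motif matches in capitals.
Slc5a8, chr10:88885742-88885991, plus strand: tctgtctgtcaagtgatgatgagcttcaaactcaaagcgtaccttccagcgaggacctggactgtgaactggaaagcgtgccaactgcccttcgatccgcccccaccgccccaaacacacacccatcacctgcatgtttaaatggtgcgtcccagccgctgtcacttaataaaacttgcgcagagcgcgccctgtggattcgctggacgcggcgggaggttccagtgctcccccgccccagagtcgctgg
Slc2a1, chr4:119108495-119108744, plus strand: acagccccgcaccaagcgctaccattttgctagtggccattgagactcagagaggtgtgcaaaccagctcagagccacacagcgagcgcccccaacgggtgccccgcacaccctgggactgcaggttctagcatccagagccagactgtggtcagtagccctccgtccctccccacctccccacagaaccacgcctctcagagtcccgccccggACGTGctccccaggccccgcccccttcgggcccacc
Slc2a6, chr2:27027999-27028248, minus strand: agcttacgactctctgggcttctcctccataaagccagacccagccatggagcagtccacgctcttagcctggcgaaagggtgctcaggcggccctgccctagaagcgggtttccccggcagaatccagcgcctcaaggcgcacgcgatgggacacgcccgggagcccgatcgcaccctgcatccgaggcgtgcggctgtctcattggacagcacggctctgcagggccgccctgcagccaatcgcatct
The motif in the Slc2a1 window is ACGTG, the core of the hypoxia response element. RefSeq windows were at hand for 26 of the 36 members. ACGTG, on either strand, stood in the windows of 4 of these genes, Slc2a1, Slc5a1, Slc16a1 and Slc16a12, and in 16.6% of all 32851 windows of the reference table. The E box CACGTG, which contains ACGTG on both strands, stood in those of Slc5a1, Slc16a1 and Slc16a12 and in 6.02% of all windows. The windows of Slc5a8 and Slc2a6 held neither motif, which says nothing of the factors themselves. The RefSeq starts need not equal the gene ends of the deposited table.

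Depth ran from 11.6 to 24.3 per library, in units of 1e6 counts. Levels are given as FPKM (fragments scaled by gene length and library depth), on which genes can be compared, divided by the TMM factor of the library (trimmed mean of M values, which levels out differences in composition). Differences are log2 changes ± SE from edgeR's quasi-likelihood test, with p-values adjusted over all 16576 tested genes by the method of Benjamini and Hochberg. The test gives no SE itself, so the SE was derived as the size of the log2 change over the square root of the F statistic. A gene was called higher or lower at an adjusted p under 0.05. Transcripts of mitochondrial DNA took 6.07 to 11.3% of the counts in uIRI+MSC, 3.49 to 4.84% in uIRI and 14.2% in sham. As markers of the labelled tissue, all 12 proximal tubule genes listed were detected, at a summed 43876 to 58220 CPM (TMM-scaled counts per 1e6) in sham. Library uIRI 1 stood apart for these carriers: it was the lowest uIRI library for 23 of the 32 tested members, or 71.9%, beside 38.4% of all tested genes. Its Slc5 levels had a median log2 difference from the sham mean of -3.11, beside -1.73 and -1.72 in uIRI 2 and uIRI 3.

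Most carriers of all 3 families were lower in uIRI than in sham kidney. Of the 32 tested members 26 were called lower and 3 higher, and 3 did not pass the test, which is 29 called against 54.6% of all tested genes. The lower calls stand beside 26.3% of all genes and the higher calls beside 28.3%. The median log2 change was -1.65 over the members and 0.06 over all genes. The 3 families differed in their make-up. All 9 Slc5 members were lower, with a median of -1.97. Of 12 Slc16 members 11 were lower, with a median of -1.69, and Slc16a6 did not pass. The Slc2 family was mixed, with 6 members lower, 3 higher and 2 not passing, and a median of -0.61. The uIRI libraries all lay under both sham libraries for 27 members and above both for 3, beside 36.5% and 40.6% of all genes. In whole tissue, fewer cells of a type and less RNA per cell cannot be told apart.

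**Figure D1:**
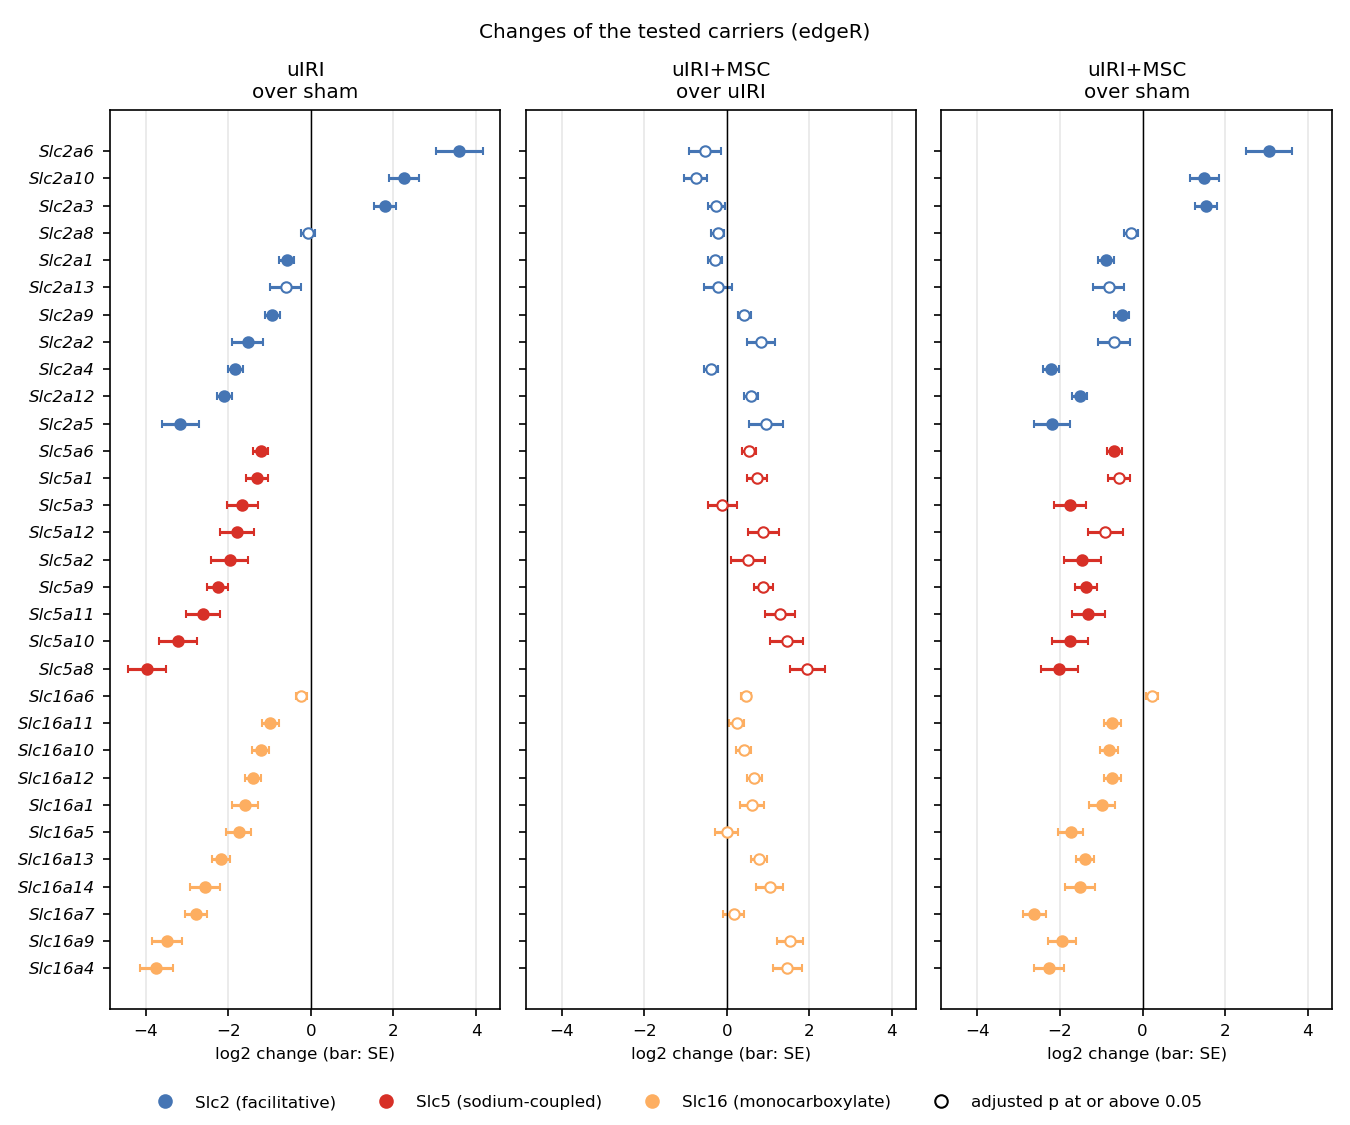
Log2 changes of 31 of the tested carriers in the 3 comparisons, with bars for the SE, grouped by family and ordered by the change in uIRI over sham. Filled points passed an adjusted p of 0.05: 28 in uIRI over sham, 0 in uIRI+MSC over uIRI and 25 in uIRI+MSC over sham.

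Without uIRI 1 the comparison of uIRI with sham gave 25 lower and 3 higher members, with medians of -0.76, -1.59 and -1.51 in the Slc2, Slc5 and Slc16 families. With libraries scaled by their size alone, which shifts the median of all genes to 0.73, 22 members were lower and 5 higher, beside 12.0% and 54.6% of all genes, and the medians were 0.05, -1.33 and -1.04. The sign of the Slc2 median therefore depends on the scaling. Of the 29 calls, 24 held under each of the 17 alternatives run.

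On the TMM scale the glucose carriers of the brush border were lower in every uIRI and uIRI+MSC library than in both sham libraries. Slc5a2, the SGLT2 of the early proximal tubule and target of the gliflozin drugs, had 41.7, 40.7 and 24.1 FPKM in uIRI+MSC, 10, 35.0 and 29.6 in uIRI, and 91.0 and 104 in sham. All 6 values of the injured groups lay under both sham libraries, and uIRI 1 and uIRI+MSC 3 were the lowest of their groups. The log2 change of uIRI over sham was -1.97 ± 0.45 (adjusted p 0.00608), a 3.92-fold lower level. Slc5a1, the SGLT1 of the late proximal tubule, had 22.6, 18.0 and 23.6 FPKM in uIRI+MSC, 8.39, 14.2 and 16.1 in uIRI, and 35.5 and 27.9 in sham. Its log2 change in uIRI was -1.3 ± 0.26 (adjusted p 0.00307), with no overlap between any of the 3 groups. In uIRI+MSC over sham Slc5a1 did not pass, at -0.57 ± 0.26 (edgeR adjusted p 0.114), and with library size alone it was at -0.05. The ratio of Slc5a2 to Slc5a1 within a library averaged 1.62 in uIRI+MSC, 1.75 in uIRI and 3.08 in sham, as a geometric mean.

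The facilitative glucose carriers Slc2a2 and Slc2a1 were both called lower in uIRI than in sham. Slc2a2, the GLUT2 of the basolateral membrane of the early proximal tubule and of hepatocytes, had 14.1, 14.1 and 13.8 FPKM in uIRI+MSC, 3.41, 9.87 and 10.2 in uIRI, and 22.2 and 22.9 in sham. The groups did not overlap, and uIRI+MSC lay between uIRI and sham. The log2 change in uIRI was -1.53 ± 0.38 (adjusted p 0.00856), and library size alone ended the call, at -0.88 with an edgeR adjusted p of 0.055. Slc2a1, the GLUT1 of most cells, had 7.76, 7.29 and 9.53 FPKM in uIRI+MSC, 8.82, 12.1 and 9.19 in uIRI, and 13.2 and 17.1 in sham. Its log2 change in uIRI was -0.59 ± 0.19 (adjusted p 0.028), the smallest among the members called lower. This call was lost without uIRI 1, uIRI 3 or sham 2, at adjusted p of 0.0812, 0.0797 and 0.237 in edgeR, and with library size alone the change was 0.06. Erythroid markers were also highest in sham 2: they summed to 47.1 to 156 CPM in uIRI+MSC, 50.1 to 80.5 in uIRI, 125 in sham 1 and 424 in sham 2, and their part in the result was not tested. Slc2a1 took 21.3% of the summed Slc2 FPKM in uIRI+MSC, 30.4% in uIRI and 18.7% in sham, and was the most abundant Slc2 member only in the uIRI mean.

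Fructose and mannose carriers fell steeply. Slc2a5, the GLUT5 that carries fructose, had 5.97, 4.48 and 5.78 FPKM in uIRI+MSC, 1.06, 3.37 and 3.94 in uIRI, and 28.7 and 20.9 in sham. It was the most abundant Slc2 member in the sham mean, and its share of the family sum was 14.0% in uIRI+MSC, 8.01% in uIRI and 30.6% in sham. The log2 change of uIRI over sham was -3.16 ± 0.45 (adjusted p 0.000508). Slc5a10, the SGLT5 that carries mannose and fructose in the kidney, had 23.6, 20.8 and 18.1 FPKM in uIRI+MSC, 2.98, 10.2 and 9.59 in uIRI, and 84.1 and 57.4 in sham. All 3 groups stood clear of each other, and the change in uIRI was -3.22 ± 0.45 (adjusted p 0.000455). Slc5a9, the SGLT4 that carries mannose, had 2.16, 2.2 and 2.21 FPKM in uIRI+MSC, 0.729, 1.35 and 1.46 in uIRI, and 6.11 and 5.18 in sham. Its uIRI+MSC libraries were nearly alike, above every uIRI library and under both sham libraries. The change in uIRI was -2.26 ± 0.26.

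The 3 members that rose in uIRI were all Slc2 carriers at low levels. Slc2a6, the GLUT6 that sits on membranes inside the cell and is abundant in macrophages, had 1.21, 1.94 and 0.926 FPKM in uIRI+MSC, 2.21, 1.29 and 2.39 in uIRI, and 0.0780 and 0.240 in sham. It rose 12.1-fold in uIRI, a log2 change of 3.60 ± 0.56 (adjusted p 0.000781). The sham libraries held 4 and 13 of its counts, so the size of the rise is loosely set: it was 4.65 without sham 2 and 3.04 without sham 1, and called in both. Slc2a10, the GLUT10 that carries dehydroascorbic acid and whose loss in humans causes arterial tortuosity, had 1.10, 1.24 and 0.835 FPKM in uIRI+MSC, 2.34, 1.76 and 1.26 in uIRI, and 0.396 and 0.352 in sham. It rose by 2.25 ± 0.36 (adjusted p 0.000935), and its uIRI+MSC libraries all lay between those of uIRI and sham. Slc2a3, the high-affinity GLUT3 of neurons and white blood cells, ranged over 0.613 to 0.684 FPKM in uIRI+MSC, 0.671 to 0.976 in uIRI and 0.211 to 0.240 in sham, and rose by 1.79 ± 0.26 (adjusted p 0.000563). Each of the 3 calls held under the 17 alternatives. Macrophage markers moved with them, with 12 of 12 called higher and a summed 2091 to 2721 CPM in uIRI+MSC, 3474 to 5246 in uIRI and 245 to 283 in sham. Fibroblast markers, 9 of 9 higher, summed to 2232 to 4054 in uIRI+MSC, 3755 to 8883 in uIRI and 352 to 538 in sham. Injured tubule markers were likewise higher in 10 of 10 and T cell markers in 9 of 9. Over all tested genes 28.3% were called higher in uIRI than in sham. The part of these cells in the rise of the carriers was not tested.

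Other Slc2 members fell or did not pass. Slc2a4, the insulin-responsive GLUT4 of muscle and fat, had 1.58, 1.45 and 1.48 FPKM in uIRI+MSC, 1.93, 1.61 and 2.34 in uIRI, and 6.29 and 7.61 in sham, a change of -1.83 ± 0.18 in uIRI (adjusted p 0.000104). Adipocyte markers were near 0, at 0.0715 to 2.02 summed CPM in uIRI+MSC, 0.236 to 0.471 in uIRI and 0 to 0.680 in sham, with the leptin gene Lep at 0 in every library. Skeletal muscle markers summed to 1.18 to 1.80 in uIRI+MSC, 1.75 to 2.24 in uIRI and 0.972 to 1.20 in sham, with Myh4 and Myh1 at 0. Slc2a12, the GLUT12 of muscle, fat and epithelia, had 1.53, 1.85 and 1.42 FPKM in uIRI+MSC, 1.08, 1.08 and 1.05 in uIRI, and 4.34 and 4.82 in sham. It was the most uniform member within uIRI and changed by -2.10 ± 0.18 there (adjusted p 6.12e-05). Slc2a9, a urate carrier, had 0.937, 1.08 and 0.984 FPKM in uIRI+MSC, 0.648, 0.835 and 0.744 in uIRI, and 1.5 and 1.34 in sham. Its log2 change in uIRI was -0.94 ± 0.18 (adjusted p 0.0022), a call that library size alone ended, at -0.27.

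A pair of Slc2 members did not pass in any comparison. Slc2a8, the GLUT8 of membranes inside the cell, had 3.10, 3.13 and 2.68 FPKM in uIRI+MSC, 3.50, 2.97 and 3.90 in uIRI, and 3.37 and 3.81 in sham. Its uIRI and sham libraries overlapped, and its change in uIRI was -0.06 ± 0.17. Slc2a13, the proton-coupled myo-inositol carrier HMIT, had 0.550, 0.525 and 1.09 FPKM in uIRI+MSC, 0.996, 0.828 and 0.660 in uIRI, and 0.940 and 1.59 in sham. It overlapped in all comparisons, with a change of -0.61 ± 0.37 in uIRI. With library size alone the change of Slc2a8 was 0.61 (adjusted p 0.0211).

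**Figure D2:**
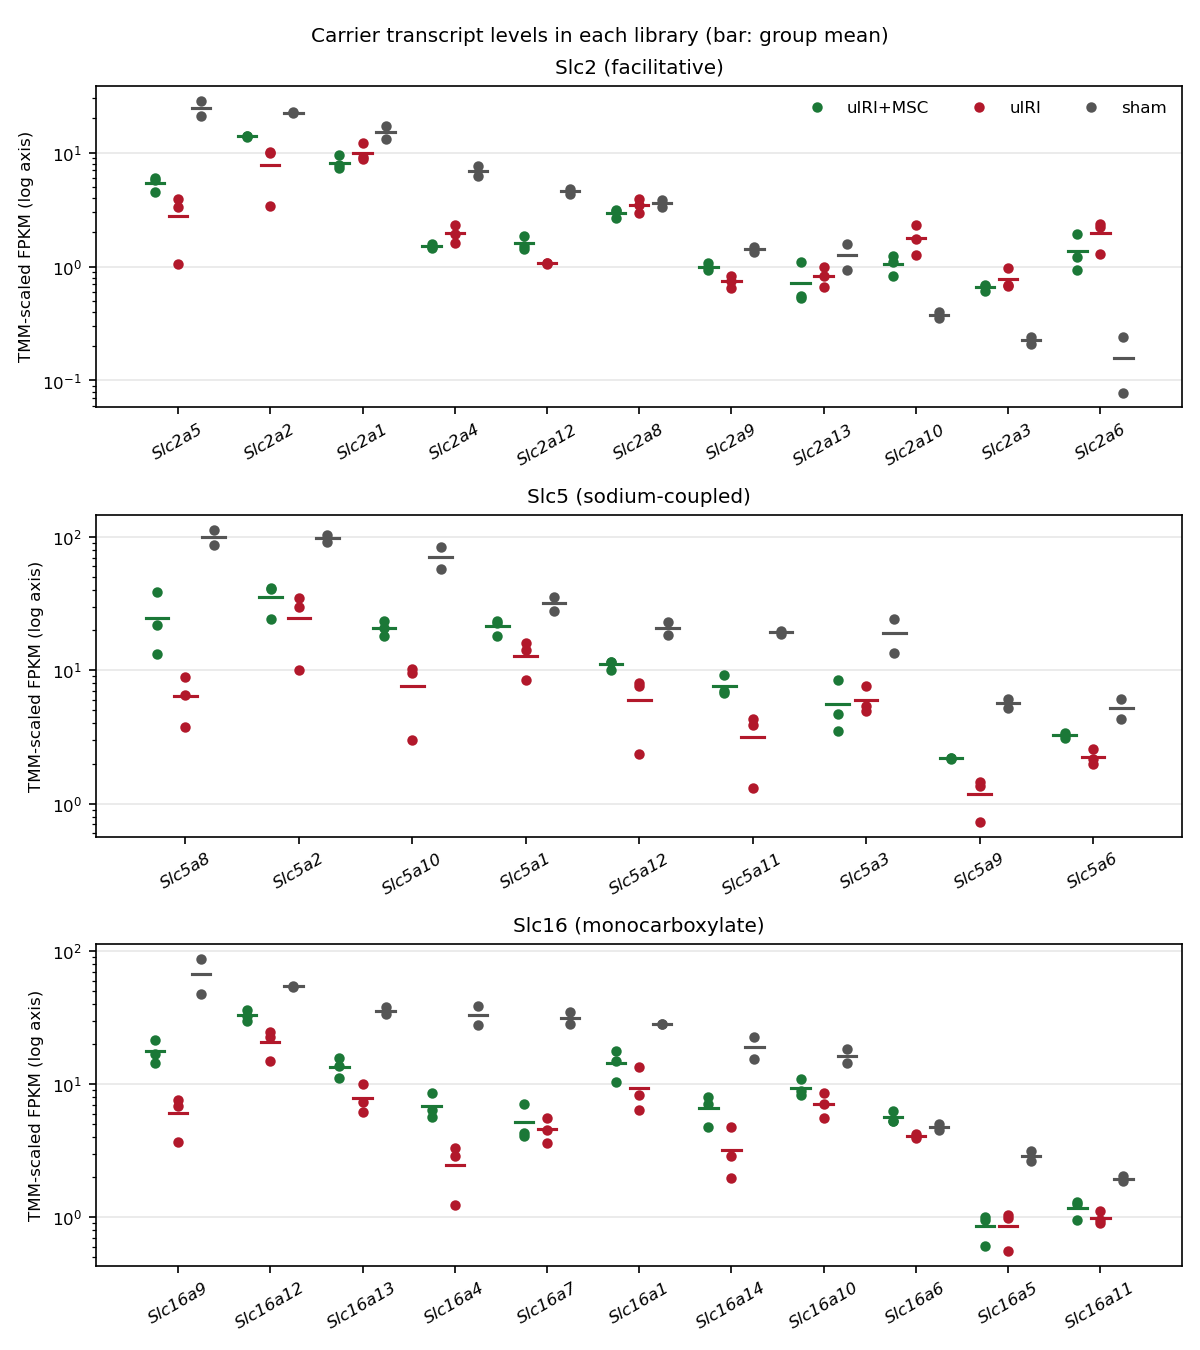
TMM-scaled FPKM of 31 of the tested carriers in each of the 8 libraries, on a log axis, 1 panel per family and members ordered by their sham mean. Points are libraries, bars are group means, and most carriers have their 2 sham points on top, with Slc2a3, Slc2a6 and Slc2a10 the other way round.

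The 2 sodium-coupled myo-inositol carriers were both called lower in uIRI than in sham. Slc5a11, the SMIT2 of the brush border, had 9.28, 7.03 and 6.76 FPKM in uIRI+MSC, 1.32, 4.31 and 3.86 in uIRI, and 19.8 and 18.6 in sham, a change of -2.61 ± 0.41 in uIRI (adjusted p 0.000825). Slc5a3, the osmotically regulated SMIT1 of the medulla, had 4.73, 3.49 and 8.49 FPKM in uIRI+MSC, 4.95, 5.44 and 7.58 in uIRI, and 13.4 and 24.4 in sham. Sham 1 lay nearer to the highest injured library than to sham 2, and the change in uIRI was -1.66 ± 0.38 (adjusted p 0.00628). Without sham 2 it was -1.13 at an adjusted p of 0.0702 in edgeR. Slc5a3 lies wholly within the span of Mrps6 on the same strand, over 29152 bases, so the counting could split reads between them, and Mrps6 itself changed by -1.08 ± 0.18.

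The sodium-coupled carriers of monocarboxylates and vitamins fell as well. Slc5a8, the SMCT1 that takes up lactate, butyrate and nicotinate, had 21.9, 13.3 and 38.7 FPKM in uIRI+MSC, 3.75, 8.84 and 6.54 in uIRI, and 113 and 87.5 in sham. It was the most abundant Slc5 member in the sham mean and had the lowest change of all 32 members in uIRI, -3.97 ± 0.47, a 15.7-fold lower level (adjusted p 0.000219). Slc5a12, the low-affinity lactate carrier SMCT2 of the early proximal tubule, had 11.6, 10.1 and 11.6 FPKM in uIRI+MSC, 2.37, 7.63 and 7.99 in uIRI, and 18.3 and 23.0 in sham. Its change in uIRI was -1.79 ± 0.42 (adjusted p 0.00662), and the groups did not overlap. Slc5a6, the SMVT that carries biotin and pantothenate, had 3.29, 3.10 and 3.38 FPKM in uIRI+MSC, 2.00, 2.18 and 2.59 in uIRI, and 6.11 and 4.34 in sham. Its log2 change, -1.21 ± 0.18, was the smallest of the Slc5 family (adjusted p 0.000715).

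Proton-linked lactate carriers of the Slc16 family came next. Slc16a1, the MCT1 of most tissues, had 15.1, 17.9 and 10.4 FPKM in uIRI+MSC, 8.29, 13.5 and 6.36 in uIRI, and 28.5 and 28.3 in sham, a change of -1.60 ± 0.31 in uIRI (adjusted p 0.00267). Slc16a7, the high-affinity MCT2, had 4.29, 4.12 and 7.15 FPKM in uIRI+MSC, 3.63, 4.53 and 5.61 in uIRI, and 28.2 and 35.1 in sham. Its change was -2.79 ± 0.27 (adjusted p 9.2e-05), and its uIRI+MSC and uIRI libraries overlapped. Both carriers stood at a like level in sham, and the ratio of Slc16a7 to Slc16a1 was 0.361 in uIRI+MSC, 0.511 in uIRI and 1.11 in sham.

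The Slc16 family also holds an amino acid carrier. Slc16a10, the TAT1 that carries aromatic amino acids, had 8.33, 11.0 and 8.87 FPKM in uIRI+MSC, 5.63, 7.07 and 8.55 in uIRI, and 14.5 and 18.4 in sham, a change of -1.22 ± 0.20. Both sham libraries lay above the rest, and uIRI+MSC overlapped uIRI.

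Carriers linked to creatine and carnitine were abundant and differed in their fall. Slc16a12, a creatine carrier, had 32.8, 30.1 and 36.1 FPKM in uIRI+MSC, 15.0, 24.6 and 22.6 in uIRI, and 55.2 and 54.3 in sham, a change of -1.40 ± 0.20 in uIRI. Slc16a9, linked to carnitine and urate in humans, had 16.8, 14.5 and 21.7 FPKM in uIRI+MSC, 3.71, 7.64 and 6.84 in uIRI, and 87.4 and 47.9 in sham. Its sham libraries differed widely but stood clear of all others, and its change in uIRI was -3.48 ± 0.36, an 11.2-fold lower level (adjusted p 0.000112).

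The substrates of the remaining Slc16 members are less well known. Slc16a4 had 6.38, 5.64 and 8.68 FPKM in uIRI+MSC, 1.23, 3.35 and 2.89 in uIRI, and 38.6 and 27.9 in sham, and fell 13.4-fold in uIRI, a log2 change of -3.74 ± 0.39 (adjusted p 0.00012). It had the lowest change of the Slc16 family. Slc16a14 had 7.15, 4.75 and 7.99 FPKM in uIRI+MSC, 1.99, 4.78 and 2.88 in uIRI, and 15.6 and 22.5 in sham, a change of -2.57 ± 0.36. The uIRI 2 library of Slc16a14 reached just above uIRI+MSC 2, while both sham libraries stood clear. Slc16a5 had 0.954, 1.00 and 0.612 FPKM in uIRI+MSC, 0.557, 0.986 and 1.04 in uIRI, and 3.14 and 2.64 in sham. Its change in uIRI was -1.75 ± 0.31, and uIRI+MSC and uIRI overlapped.

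Slc16a13 and Slc16a11 lie side by side on chromosome 11, at chr11:70216789-70221064 and chr11:70212752-70216417 (GRCm38, per the deposited table), on opposite strands. Slc16a13 had 15.7, 13.8 and 11.1 FPKM in uIRI+MSC, 6.19, 10.1 and 7.40 in uIRI, and 37.8 and 33.5 in sham, a change of -2.17 ± 0.22 in uIRI (adjusted p 0.000111). Slc16a11 had 1.31, 1.26 and 0.948 FPKM in uIRI+MSC, 0.912, 1.11 and 0.951 in uIRI, and 2.03 and 1.88 in sham, a change of -0.98 ± 0.20 (adjusted p 0.00308). The call of Slc16a11 was lost with library size alone, at -0.31. Both neighbours were lower in all uIRI and uIRI+MSC libraries than in sham. Slc16a6, shown to export ketone bodies from the liver of zebrafish, was the Slc16 member that did not pass. It had 5.28, 6.32 and 5.30 FPKM in uIRI+MSC, 4.21, 4.11 and 3.95 in uIRI, and 5.03 and 4.55 in sham, with uIRI+MSC on top, and its change in uIRI was -0.23 ± 0.14 (adjusted p 0.186). With library size alone it was 0.45 (adjusted p 0.0262).

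The sources used here do not name the strand used in counting, so members that overlap a gene on the opposite strand are uncertain. Slc5a10 shares 25861 bases with Fam83g, which changed by -0.49 ± 0.24 in uIRI over sham and did not pass. Slc5a2 shares 1052 bases with BC017158, at -0.08 ± 0.13. Slc5a6 shares 613 bases with Atraid, at -0.75 ± 0.17, and Slc2a12 shares 407 bases with Tbpl1, at 0.35 ± 0.21. The changes of these 4 members were larger in size than those of their partners. Slc16a6 shares 1959 bases with Amz2, at -0.30 ± 0.13, and 225 with Arsg, at -2.15 ± 0.27. Slc16a5 shares 981 bases with the predicted gene Gm11695, at -2.03 ± 0.41, which is close to its own change.

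Summed over a family, the carriers kept the same order of groups. The Slc5 sum was 141, 119 and 137 FPKM in uIRI+MSC, 36.7, 89.3 and 85.4 in uIRI, and 387 and 352 in sham. The Slc16 sum was 181, 171 and 181 in uIRI+MSC, 74.9, 128 and 98.2 in uIRI, and 423 and 375 in sham. The Slc2 sum was 38.5, 37.8 and 39.2 in uIRI+MSC, 27.0, 36.3 and 36.4 in uIRI, and 81.3 and 80.8 in sham. In each family every uIRI+MSC library lay above every uIRI library and under both sham libraries, and uIRI 1 was the lowest of all. The gap between uIRI+MSC and uIRI was narrow for Slc2, with a log2 difference of the sums of 0.23, or 0.07 without the TMM factor. Of its 11 tested members, 7 had a log2 change under 0 in uIRI+MSC over uIRI and 4 above 0. Proximal tubule markers kept this order too, at 16244, 11890 and 12123 summed CPM in uIRI+MSC, 2379, 8040 and 5480 in uIRI, and 58220 and 43876 in sham. Of these 12 markers, 12 were called lower in uIRI than in sham, beside 26.3% of all genes, with a median log2 change of -3.14. Markers of its last segment (S3) were lower in 8 of 8, with a median of -5.25, and those of the thick ascending limb in 6 of 8, with a median of -1.86. The injured tubule list was higher in 10 of 10, beside 28.3% of all genes, with a median of 4.66. Its sum was highest in uIRI+MSC, at 12969 to 18376 CPM, beside 7455 to 9917 in uIRI and 1239 to 1683 in sham. Thick ascending limb markers summed to 1033 to 3158 CPM in uIRI+MSC, 2288 to 3622 in uIRI and 11359 to 13819 in sham. Neither of these lists kept the order of the family sums. T cell markers were higher in 9 of 9, and of 8 endothelial markers 1 was higher and 1 lower. Of 6 tested erythroid markers 1 was lower, of 4 platelet markers 1 was higher and 1 lower, and of 2 skeletal muscle markers Acta1 and Mylpf did not pass, at 2.68 ± 1.11 and -0.04 ± 0.39, though Acta1 passed without uIRI 1, at 3.09 with an edgeR adjusted p of 0.0297. The adipocyte markers had too few counts to be tested. The part of these cell types in the carrier changes was not tested.

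**Figure D3:**
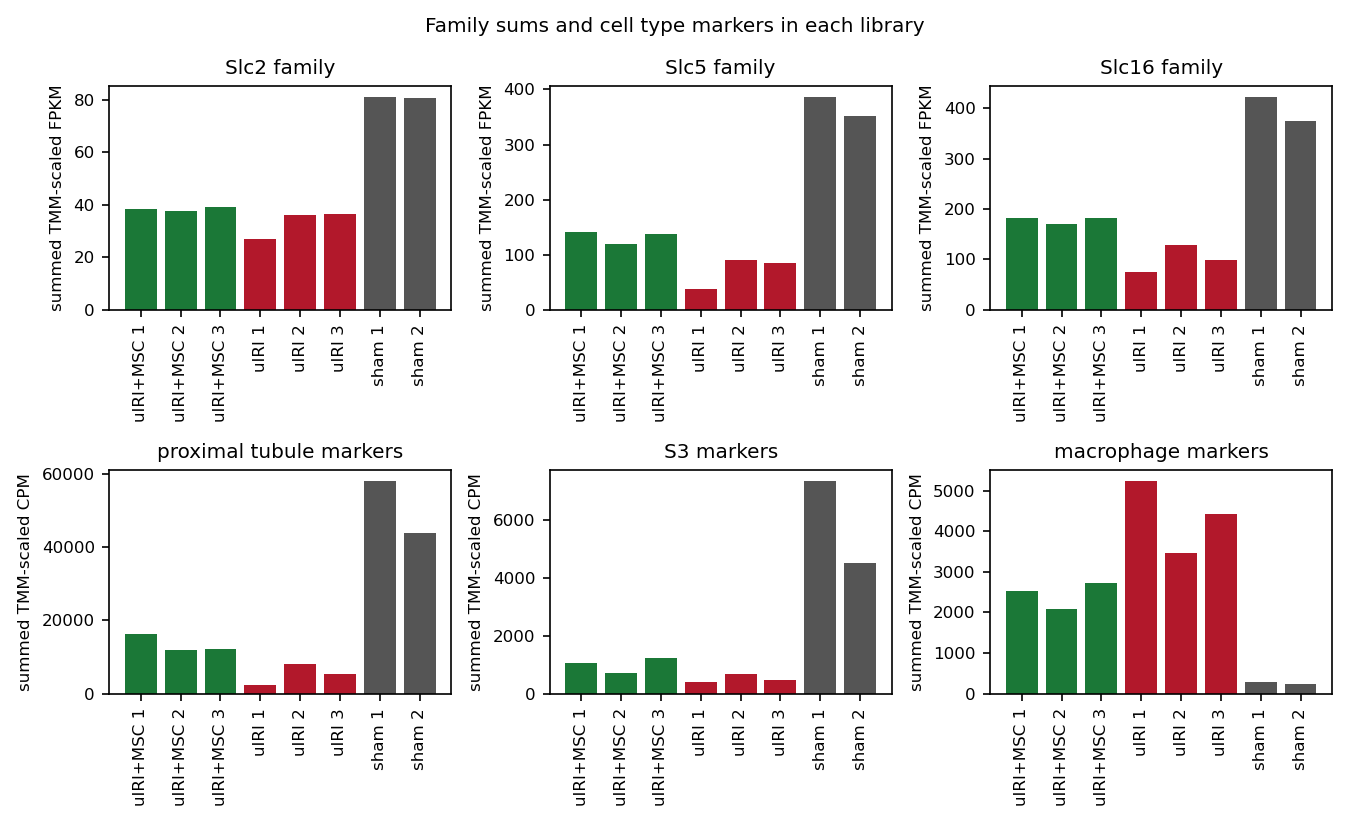
Summed TMM-scaled FPKM of each carrier family (top) and summed TMM-scaled CPM of 3 marker lists (bottom) in the 8 libraries. The Slc5 sum is 119 to 141 in uIRI+MSC, 36.7 to 89.3 in uIRI and 352 to 387 in sham, and the proximal tubule markers have the same order of groups while the macrophage markers are highest in uIRI.

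The mean make-up of each family also differed between groups, though single libraries overlapped for some members. Of the Slc2 sum, Slc2a2 took 36.4% in uIRI+MSC, 22.6% in uIRI and 27.8% in sham, and led the family in the uIRI+MSC mean. Its share was 12.6% in uIRI 1, beside 27.2 and 28% in uIRI 2 and uIRI 3 and 27.3 and 28.3% in sham. Of the Slc5 sum, Slc5a8 took 18.3% in uIRI+MSC, 9.26% in uIRI and 27.0% in sham, while Slc5a2 took 27.1%, 33.7% and 26.5% in the same order of groups. The share of Slc5a8 reached 28.2% in uIRI+MSC 3, between the sham libraries at 29.2 and 24.8%. The Slc5a2 shares of all 3 groups overlapped, at 17.6 to 34.2% in uIRI+MSC, 27.4 to 39.2% in uIRI and 23.5 and 29.5% in sham. Slc5a1 took a larger share in the injured groups, 16.1% in uIRI+MSC and 19.2% in uIRI, against 8.54% in sham. Of the Slc16 sum, Slc16a9 took 9.93% in uIRI+MSC, 5.96% in uIRI and 16.7% in sham. Shares within a library do not depend on the scaling between libraries.

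**Figure D4:**
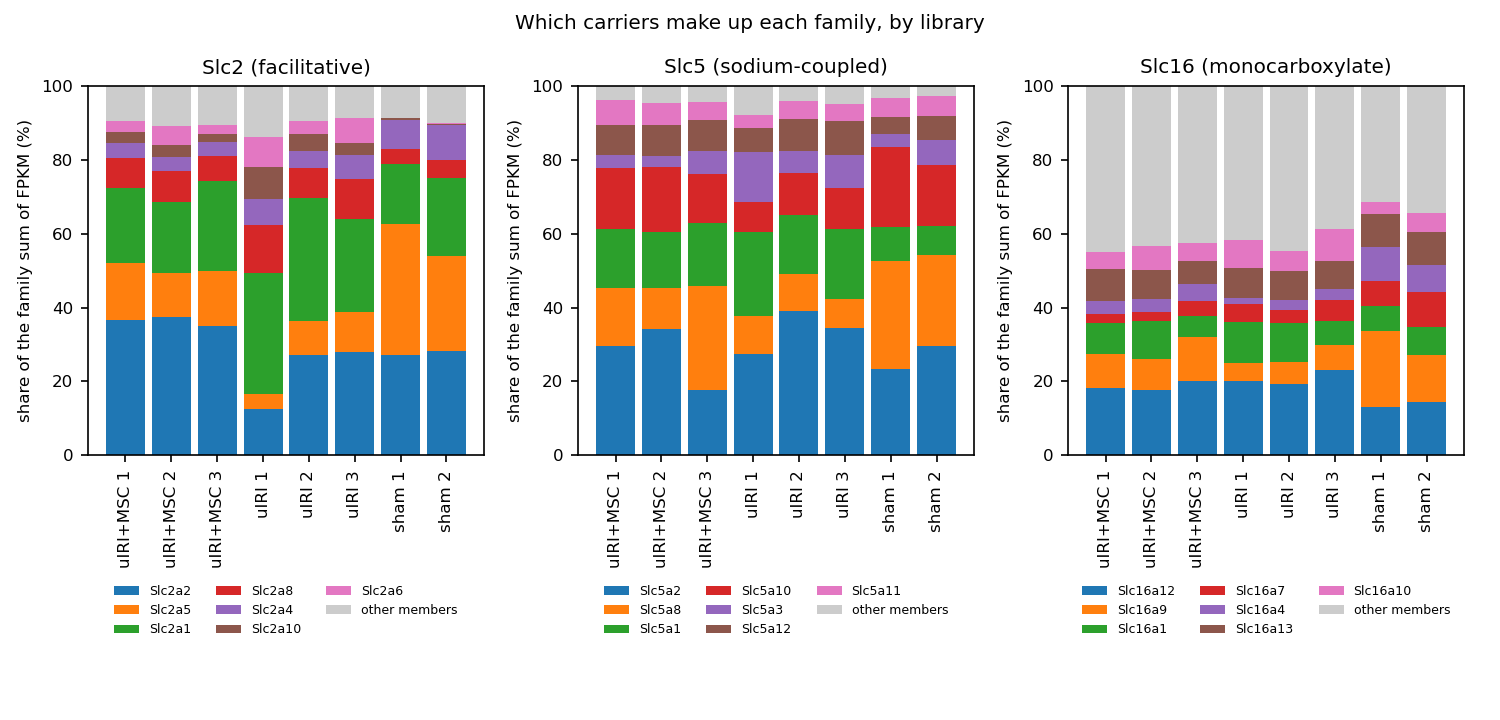
Share of each carrier in the summed FPKM of its family, in percent, by library, with 7 abundant members of each family in colour and all others in grey. Slc2a5 makes up 11.9 to 15.5% of the Slc2 family in the uIRI+MSC libraries, 3.94 to 10.8% in the uIRI libraries, and 35.4 and 25.8% in the sham libraries.

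For 6 pairs of carriers of the same family the ratio within a library was compared over the 3 comparisons. These 18 relations were tested with two-sided exact permutation tests. Not every pair shares a substrate, since Slc2a5 carries fructose and Slc2a1 glucose. With groups of 2 and 3 libraries no test can go below 0.1, and the smallest adjusted p was 0.277. The log2 ratio of Slc5a12 to Slc5a8 was -0.91, -0.39 and -1.73 in uIRI+MSC, -0.64, -0.21 and 0.28 in uIRI, and -2.62 and -1.92 in sham. Both injured groups lay above sham, and the difference of uIRI minus sham was 2.08. The log2 ratio of Slc2a5 to Slc2a1 was -0.37, -0.69 and -0.71 in uIRI+MSC, -2.94, -1.81 and -1.20 in uIRI, and 1.12 and 0.29 in sham. Here no groups overlapped, with uIRI lowest, and uIRI minus sham was -2.69. The log2 ratio of Slc2a2 to Slc2a1 was 0.86, 0.94 and 0.53 in uIRI+MSC, -1.35, -0.29 and 0.15 in uIRI, and 0.74 and 0.42 in sham. The uIRI+MSC libraries overlapped sham and lay above uIRI, with a difference of 1.27 from uIRI. The log2 ratio of Slc5a11 to Slc5a3 was 0.96, 0.99 and -0.32 in uIRI+MSC, -1.83, -0.33 and -0.96 in uIRI, and 0.57 and -0.39 in sham. The mean of uIRI+MSC lay above that of uIRI by 1.58, but uIRI+MSC 3 only just cleared uIRI 2. 

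**Figure D5:**
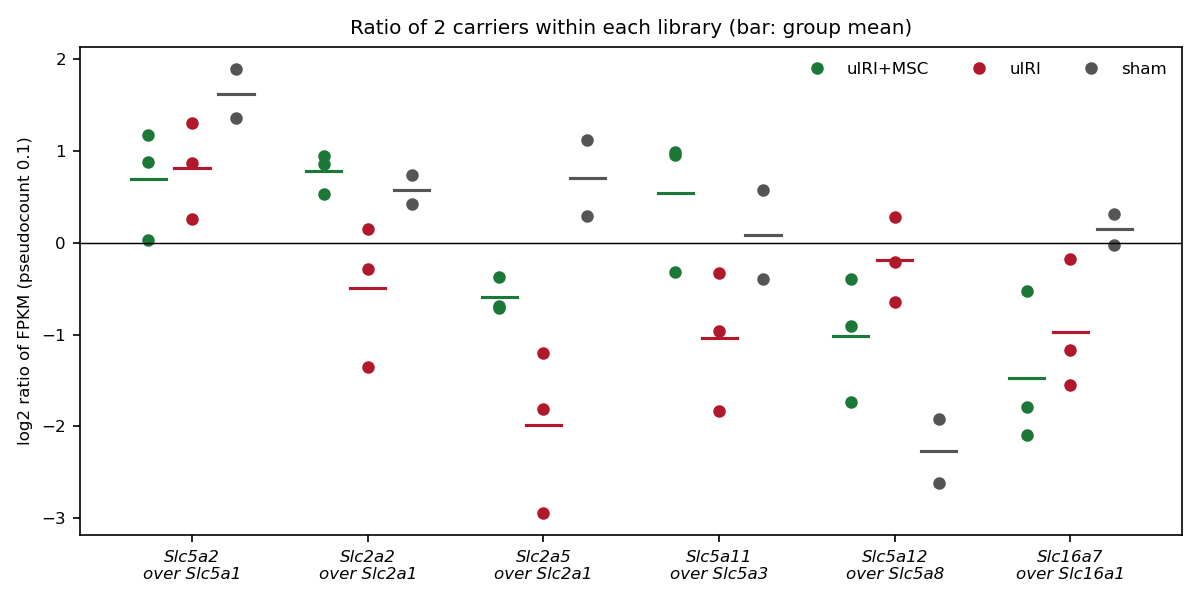
Log2 ratio of FPKM of 2 carriers within each library for 6 pairs, with points for libraries and bars for group means. For Slc2a5 over Slc2a1 the uIRI+MSC points sit between -0.71 and -0.37, the uIRI points between -2.94 and -1.20 and the sham points at 0.29 and 1.12.

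No carrier was called between uIRI+MSC and uIRI. By edgeR 0 of the 32 tested members passed, as did 0.00% of all genes, and limma-voom also called 0. DESeq2 called 11 members higher and 0 lower, beside 4.79% of all genes higher and 3.44% lower. At an unadjusted p under 0.05 in edgeR there were 19 members, beside 20.6% of all genes. The median log2 change was 0.55 over the members and -0.01 over all genes, and by family it was -0.22 for Slc2, 0.89 for Slc5 and 0.65 for Slc16. All 3 uIRI+MSC libraries lay above all 3 uIRI libraries for 17 members and below them for 2, beside 14.1% and 12.7% of all genes. The 2 below were Slc2a4 and Slc2a10, at -0.38 ± 0.17 and -0.75 ± 0.28. Without uIRI 1 the medians of the families were -0.06, 0.50 and 0.51, with 0 members called.

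The widest gap between uIRI+MSC and uIRI was that of a sodium-coupled carrier, Slc5a8. It averaged 24.6 ± 12.9 FPKM in uIRI+MSC and 6.37 ± 2.55 in uIRI (SD, n = 3 each), a log2 change of 1.95 ± 0.42 with an edgeR adjusted p of 0.111. Slc5a10 averaged 20.9 ± 2.74 FPKM in uIRI+MSC and 7.60 ± 4.01 in uIRI, with a change of 1.46 ± 0.40 (adjusted p 0.124). Slc5a11 averaged 7.69 ± 1.38 in uIRI+MSC and 3.16 ± 1.61 in uIRI, with a change of 1.29 ± 0.37 (adjusted p 0.129). In the Slc16 family, Slc16a9 had a change of 1.54 ± 0.32 (adjusted p 0.111) and Slc16a4 one of 1.47 ± 0.35 (adjusted p 0.111). These 5 members were among the 11 that DESeq2 called, as were Slc5a9, Slc16a6, Slc16a12, Slc16a13 and Slc16a14. Slc5a3, Slc16a5 and Slc16a7 had changes of -0.11 ± 0.35, 0.00 ± 0.28 and 0.17 ± 0.25, with overlapping libraries.

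In the comparison of uIRI+MSC with sham, which shares its libraries with both others, 22 members were lower and 3 higher, beside 20.3% and 22.1% of all genes (42.4% in either direction), and 7 did not pass. All uIRI+MSC libraries lay under both sham libraries for 27 members and above both for 4, beside 31.2% and 33.0% of all genes. The median log2 change was -0.94 over the members and 0.03 over all genes. The higher members were again Slc2a6 (3.07 ± 0.56), Slc2a3 (1.54 ± 0.26) and Slc2a10 (1.5 ± 0.36). The lowest changes were those of Slc16a7 (-2.62 ± 0.27), Slc16a4 (-2.27 ± 0.37), Slc2a4 (-2.21 ± 0.19), Slc2a5 (-2.2 ± 0.44) and Slc5a8 (-2.02 ± 0.45). Among those that did not pass were Slc2a2 (-0.69 ± 0.38), Slc2a8 (-0.27 ± 0.17), Slc2a13 (-0.82 ± 0.38), Slc5a1 (-0.57 ± 0.26), Slc5a12 (-0.90 ± 0.42) and Slc16a6 (0.23 ± 0.14). Of these, Slc2a2, Slc5a1 and Slc5a12 passed once uIRI 1, which is outside the comparison but part of the fit, was left out, at adjusted p of 0.00204, 0.0284 and 0.00182. The count of lower members leaned on the sham pair: it was 13 without sham 1 and 12 without sham 2, and 13 with library size alone, under which 8.16% of all genes were lower and 44.6% higher. Of the 25 calls, 11 held under all 17 alternatives: Slc2a3, Slc2a4, Slc2a5, Slc2a6, Slc2a12, Slc5a9, Slc16a4, Slc16a5, Slc16a7, Slc16a9 and Slc16a13.

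Genes that use or regulate the same substrates are given as lists, by the number of tested members called in uIRI over sham. Over all tested genes 26.3% were called lower and 28.3% higher in this comparison. Of 6 fructose and polyol enzymes 5 were lower and none higher, with a median log2 change of -2.49, including Sord (sorbitol dehydrogenase, -2.98 ± 0.42) and Khk (ketohexokinase, -2.93 ± 0.41). Of 11 genes of lactate, pyruvate and ketone use 10 were lower, with a median of -1.85, including Bdh1 (-3.75 ± 0.40) and Acat1 (-3.28 ± 0.28) of ketone metabolism and the pyruvate dehydrogenase subunits Pdha1 (-1.85 ± 0.16) and Pdhb (-1.55 ± 0.13). Of 8 genes of glucose phosphorylation and release 4 were lower and 2 higher, with a median of -0.58. G6pc and Pck1, which release and make glucose, changed by -4.27 ± 0.57 and -3.93 ± 0.59, while the hexokinases Hk2 and Hk3 rose by 5.37 ± 0.32 and 3.99 ± 0.42, with Hk2 at 6.1 without sham 1. The most abundant hexokinase, Hk1, did not pass, at -0.22 ± 0.30 (edgeR adjusted p 0.559), with 11.7 FPKM in uIRI and 13.6 in sham, and neither did Hkdc1, at 0.68 ± 0.33. Hk1 and Hkdc1 were named after their values were seen.

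Most genes of the urate and of the creatine, carnitine and thyroid hormone lists were lower. These counts stand beside 26.3% of all genes lower and 28.3% higher in uIRI over sham. Of 8 urate genes 6 were lower and 2 higher, with a median of -3.58, and the lower ones included Slc22a12 (-3.86 ± 0.54), which takes urate back, and Abcg2 (-2.38 ± 0.30), which exports it. Of 10 genes of creatine, carnitine and thyroid hormone handling 8 were lower and 1 higher, with a median of -1.57, among them Dio1 (-3.03 ± 0.25), which activates thyroid hormone, and Gatm (-2.74 ± 0.36), which makes the precursor of creatine. Of 8 genes of myo-inositol and osmolyte handling 3 were lower and 1 higher, with a median of -0.59, and Miox, which breaks down myo-inositol in the proximal tubule, changed by -3.42 ± 0.50 while Isyna1, which makes it, rose by 0.96 ± 0.24. Without sham 1 Isyna1 was at 0.82 (edgeR adjusted p 0.0777) and no gene of this list was called higher, while 2 were without uIRI+MSC 1, which is outside the comparison. Of 7 sugar carriers outside the 3 families 3 were lower and 3 higher, with a median of -0.44. Slc37a4, which brings glucose 6-phosphate into the endoplasmic reticulum, changed by -2.57 ± 0.31 and Slc37a2, abundant in macrophages, rose by 3.11 ± 0.38. Of 18 partners and regulators of the carriers 11 were lower and 4 higher, with a median of -0.54, but 7 were lower without sham 2 and 2 higher without sham 1. The scaffold Pdzk1 changed by -2.72 ± 0.40, and Arrdc4, an inhibitor of glucose uptake, rose by 1.71 ± 0.17. Without uIRI 3, sham 1 or sham 2 in turn, 1 urate gene was higher, and without either sham library no gene of the creatine list was. With library size alone the lower genes numbered 5 of the partners and regulators, 5 of the creatine list and 1 of the myo-inositol list. Under that scaling 12.0% of all genes were lower. In uIRI+MSC over uIRI edgeR called 0 of the 76 tested genes of these 8 lists, and 0.00% of all genes. At an unadjusted p under 0.05 in edgeR there were 39, beside 20.6% of all genes. DESeq2 called 19 higher and 5 lower, beside 4.79% and 3.44% of all genes. The list medians ran from -0.04 for the other sugar carriers to 1.77 for urate.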

How the data were processed

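The authors deposited 1 table with a raw count and an FPKM value for each gene and library. Per the file headers the count columns are read counts per gene, and per the file headers the FPKM columns are counts scaled by gene length and depth, with the depth proportional to the count total to within 0.000642%. Per the submitters' processing notes the build was GRCm38 and the tools named were edgeR 3.2.0, StringTie 1.3.3b, HISAT2 2.0.4, Bowtie2 2.2.6, SAMtools 1.9 and FastQC 0.10.1, with no roles given. The sources used here do not name the counting program, strand or annotation release.

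Libraries were grouped by their labels. Counts were kept by filterByExpr at a minimum count of 10, scaled by TMM and fitted over all 8 libraries with edgeR 4.0.16 (glmQLFit with legacy=TRUE, glmQLFTest, 5 residual degrees of freedom) under R 4.3.3, and p-values were adjusted over 16576 genes. The scripts were tested on simulated data. FPKM was divided by the TMM factor, and ratios used a pseudocount of 0.1. Library depth was 11.6 to 24.3 in units of 1e6 counts. The variance between replicates was 18.7 to 72.9 times that of counting, so precision is set by the spread of the libraries. DESeq2 1.42.0, limma-voom 3.58.1, other scalings, filters and designs, and leaving out each library were alternatives.

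Members with a mean of at least 1 FPKM in any group are given library by library, and from each list of other genes up to 4 with the smallest p are named, with the genes that overlap a member added after their values were seen. The members and the 20 lists (182 entries) were chosen with earlier results of these data known, so none is independent support. Some genes, 1 tested Slc16 member among them, count in the totals, sums and medians but are not reported singly here. Figures were drawn with matplotlib 3.10.9.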

Additional observations from a re-analysis of the deposited data

How the results depend on the processing

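Over 17 alternatives the 544 values of the members in uIRI against sham kept direction and call in 534 cases, were no longer called in 7 and changed sign in 3. In uIRI+MSC against uIRI 533 of 544 were as reported and 11, all from DESeq2, became calls. In uIRI+MSC against sham 479 were as reported, 51 lost and 13 gained a call, and 1 changed sign. Leaving out each library in turn gave 24 to 26 lower and 3 higher members in uIRI against sham, 0 in uIRI+MSC against uIRI, and 12 to 25 lower and 2 to 3 higher in uIRI+MSC against sham. The lone sham library is then assumed to vary like the other groups. DESeq2 called 11 members higher in uIRI+MSC against uIRI, where edgeR and limma-voom called 0, and the cause was not tested.

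Library size alone gave 5 higher members in uIRI against sham and 13 lower in uIRI+MSC against sham, since it moves the median of all genes to 0.73 in uIRI against sham and 0.55 in uIRI+MSC against sham. Under it Slc16a6, Slc2a8, Kdr and Slc2a1 in uIRI against sham were at 0.45, 0.61, 0.12 and 0.06, and Slc2a9 in uIRI+MSC against sham at 0.01, each turned in sign. The log2 difference of the family sums from deposited FPKM with no TMM factor was -0.63 for Slc2 and -1.35 for Slc16 in uIRI against sham (-1.30 and -2.02 with it), and -0.56, -0.97 and -0.65 for Slc2, Slc5 and Slc16 in uIRI+MSC against sham (-1.08, -1.49 and -1.17 with it). The ratio of Slc5a2 to Slc5a1 in uIRI+MSC minus uIRI, -0.11, turned to 0.22 without uIRI+MSC 3 and to 0.13 without uIRI 2, over a left-out range of -0.39 to 0.22. That of Slc5a11 to Slc5a3 in uIRI+MSC minus sham, 0.45, turned to -0.03 without sham 2, over a range of -0.03 to 0.93.

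The labels do not state that the replicate numbers pair the libraries. Same-numbered libraries did not deviate together throughout, with correlations from -0.209 to 0.111 over all pairs of groups. With groups of 2 or 3 libraries these values cannot exclude a pairing. A fit with the replicate number as a block gave 26 lower and 3 higher members in uIRI against sham, 0 in uIRI+MSC against uIRI, and 18 lower and 3 higher in uIRI+MSC against sham, where Slc2a9, Slc5a2, Slc5a11 and Slc16a11 were not called. The 4 members that were not tested had too few counts in these libraries.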
